A study of Homo sapiens with 36 samples.

Results

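Transcripts of 10 genes of the thioredoxin system were followed in human cells knocked out (KO) for TXNL1, a proteasome-bound thioredoxin-like protein. Most of the lines expressed wild-type (WT) or mutant TXNL1 again. The genes are TXN, TXN2, TXNRD1, TXNRD2, TXNIP, SRXN1, GLRX, TXNDC17, TXNL4A and PITHD1. They were chosen by name, as the rows of the deposited count table whose Ensembl identifiers map to these symbols, and they are 10 of 61587 genes in that table. All 10 passed the filter on low counts, which 22486 genes passed in all. TXNL1 itself was used only to check the identity of the lines.

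The 36 RNA-seq libraries came from HEK293T cells, a human embryonic kidney line, with TXNL1 knocked out, in 12 groups of 3 replicates. The KO cells carried an empty vector or expressed WT TXNL1, TXNL1 with the substitutions D162R and R234D at the interface with the proteasome, or SxxS TXNL1, in which serines replace the active-site cysteines. Each of these 4 lines was left untreated (given DMSO according to the labels), exposed to 100 µM arsenite or exposed to 600 µM hydrogen peroxide (H2O2), for 6 h according to the methods of the study. All lines share the KO, which came from cells sorted singly and grown as isogenic clones, and TXNL1 was returned by lentivirus, so the lines differ from a parental cell in more than TXNL1. According to the methods, cells in six-well plates were treated in triplicate, but neither these nor the labels say that replicates were cultures grown apart, so the p-values measure only the spread between these libraries, which may be technical.

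Thioredoxins are small proteins that reduce disulfides in other proteins through a pair of cysteines. Thioredoxin reductases, which are selenoproteins, recharge them with electrons from NADPH, one pair of proteins working in the cytosol and nucleus (TXN and TXNRD1) and another in mitochondria (TXN2 and TXNRD2). Arsenite binds closely spaced thiols and hydrogen peroxide oxidizes thiols, so both bear on this system, and the transcription factor NRF2 is known to raise several of its genes under oxidative stress.

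Sequences upstream of TXNRD1, TXNIP and SRXN1 are shown because these genes changed most with arsenite. They are the 250 bases before the annotated start in the RefSeq table of promoters (build GRCh38.p14), which has an entry for 9 of the 10 genes and none for TXN2. Capitals mark the fixed letters of the antioxidant response element core TGACNNNGC, the letters bound by NRF2 and its partners, in TXNRD1, and of the paired E-boxes CACGNGNNNNNCACGNG, the layout bound by the glucose-sensing factors MLXIP and MLXIPL, in TXNIP, while SRXN1 has no capitals.
TXNRD1 first start, chr12:104215529-104215778, plus strand: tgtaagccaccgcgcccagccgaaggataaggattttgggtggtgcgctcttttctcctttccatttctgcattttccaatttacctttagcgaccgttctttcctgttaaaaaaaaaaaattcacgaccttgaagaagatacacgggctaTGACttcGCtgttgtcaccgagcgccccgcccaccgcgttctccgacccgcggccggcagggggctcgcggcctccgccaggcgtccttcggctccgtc
TXNRD1 second start, chr12:104286782-104287031, plus strand: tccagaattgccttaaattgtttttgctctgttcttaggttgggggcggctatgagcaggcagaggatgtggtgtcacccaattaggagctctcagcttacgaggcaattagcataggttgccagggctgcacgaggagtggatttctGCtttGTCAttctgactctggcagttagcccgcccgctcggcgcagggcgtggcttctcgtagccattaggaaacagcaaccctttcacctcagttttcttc
TXNIP, chr1:145996580-145996829, minus strand: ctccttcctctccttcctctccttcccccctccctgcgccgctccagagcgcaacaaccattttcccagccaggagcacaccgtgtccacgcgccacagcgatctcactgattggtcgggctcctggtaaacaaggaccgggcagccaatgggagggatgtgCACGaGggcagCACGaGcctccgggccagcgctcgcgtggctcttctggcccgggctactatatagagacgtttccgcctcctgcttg
SRXN1, chr20:653201-653450, minus strand: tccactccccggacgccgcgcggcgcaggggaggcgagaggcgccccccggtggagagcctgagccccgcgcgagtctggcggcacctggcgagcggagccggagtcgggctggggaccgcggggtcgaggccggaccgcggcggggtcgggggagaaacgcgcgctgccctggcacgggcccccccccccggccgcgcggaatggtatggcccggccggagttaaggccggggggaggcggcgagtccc
Both TXNRD1 starts held the antioxidant response element core, beginning 99 bases before the first start on the strand of the gene and 102 bases before the second start on the other strand, and so did 10.9% of the 35116 promoters in the table. The SRXN1 window held no match to these letters. The paired E-boxes began 88 bases before the TXNIP start, a layout found in 16 promoters (0.0456%). The E-box CACGTG, present in 6.34% of promoters, and the heat shock element core GAANNTTC, present in 5.78%, had no match in the 9 genes. The TATA box TATAAA, held by 10.7% of promoters, lay 30 and 32 bases before the TXN start, on either strand, and 120 bases before the second TXNRD2 start on the other strand. All motifs were searched on both strands. CACGTG and the paired layout are cases of CACGNG, which 26.7% of promoters held. CACGNG lay in the windows of TXN, TXNRD1 (both starts), TXNRD2 (second start), TXNIP, SRXN1 and PITHD1. A match describes letters only, and a missing match says nothing about the factor.

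The libraries held 42072410 to 174119002 counts, so each gene rested on many reads: the lowest count of any of the 10 in a library was 136, for TXNIP under arsenite. Levels are given as CPM, the counts scaled to a common library size after TMM normalization, which corrects for composition. A pair of WT libraries, arsenite replicate 1 and H2O2 replicate 2, stood apart. Their log2 CPM values deviated from the group median with an SD of 0.546 and 0.624 over 15674 genes, against 0.0821 to 0.193 in the other 34 libraries. Counts of called genes are given with and without them. LIN28B, a marker of HEK293T cells, was at 54.9 to 196 CPM in every library, whereas the other markers listed for the line, PAX2 (0.147 to 0.838 CPM) and NEFM (0 to 0.296 CPM), were close to 0. PTPRC of blood cells was at 0 in 29 libraries, and CDH5 of endothelium and ALB of hepatocytes reached at most 0.101 and 0.299 CPM, and DCN of fibroblasts was at 0.102 to 1.02 CPM. TXNL1 mRNA was at 28.6 to 31.7 CPM in the untreated vector libraries, 52.1 to 58.0 CPM in WT, 59.3 to 66.2 CPM in D162R R234D and 51.7 to 55.0 CPM in SxxS libraries, so each complemented line lay above the vector line. The transcript left in vector cells does not measure the protein, and the counts do not show which allele it came from. CPM are relative to the other RNA of a library, so rises and falls are relative and show neither cell number nor total RNA per cell. Bulk RNA also cannot tell fewer cells holding a transcript from less of it in each cell.

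Per length of the gene, TXN was by far the most abundant of the 10 in untreated vector cells, at 256 ± 8.58 CPM per kilobase (SD, n = 3). TXN2 followed at 64.1 ± 0.516, TXNRD1 at 35.6 ± 0.427 and PITHD1, which shares the PITH domain with TXNL1 but has no thioredoxin fold, at 24.7 ± 0.566 CPM per kilobase. TXNL4A, a thioredoxin-fold subunit of the U5 snRNP of the spliceosome, was at 17.1 ± 0.560 and SRXN1 at 15.3 ± 0.303. In WT cells these neighbours overlapped, with TXNL4A at 14.7 to 16.6 and SRXN1 at 15.4 to 17.1 CPM per kilobase, so their order did not hold beyond the spread. TXNDC17, a small disulfide reductase that TXNRD1 recharges, was at 12.04 ± 0.474. TXNRD2 (4.81 ± 0.213) and TXNIP (4.48 ± 0.0841) overlapped in the WT, D162R R234D and SxxS lines. GLRX, glutaredoxin, which frees proteins from bound glutathione, was lowest at 2.42 ± 0.238 CPM per kilobase. The length is the summed exon length in the deposited table, which counts exons of all isoforms, so these levels are approximate.

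The first comparison asked whether return of WT or mutant TXNL1 moved these transcripts in untreated KO cells. No library came from parental cells with TXNL1 intact, so the effect of its loss was not tested. None of the 10 passed the threshold in untreated WT, D162R R234D or SxxS cells against vector cells by edgeR's quasi-likelihood test (adjusted p under 0.05 over all 22486 genes), and with all libraries none had an unadjusted p under 0.05 or was called by DESeq2. The share of all tested genes called was 0.196% in WT cells, 0.0267% with D162R R234D and 0.0178% in the SxxS line. An unadjusted p under 0.05 was found by edgeR for 1574, 702 and 744 of the 22486 genes. Without both outlying libraries the share called was 2.99%, 0.0756% and 0.142%, again with none of the 10 called. TXNL4A and TXNRD2 then had an unadjusted p under 0.05 in WT cells against vector cells by edgeR (adjusted p = 0.0936 and 0.315), as did 3484 of all genes. TXNL1 differed by a log2 fold change of 0.83 ± 0.0580 (SE), 1.04 ± 0.0581 and 0.80 ± 0.0579 in the same comparisons. For the 10 genes the log2 differences lay between -0.14 (TXNL4A and TXNRD2 in WT) and 0.10 (TXNDC17 in WT). The intervals limit what could have been seen: for TXN in WT cells the 95% interval ran from -0.26 to 0.34, and for SRXN1 from -0.02 to 0.21. TXNRD1 mRNA, for example, was at 236, 239 and 242 CPM in vector libraries and at 239, 243 and 237 CPM in SxxS libraries, which overlapped.

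**Figure D1:**
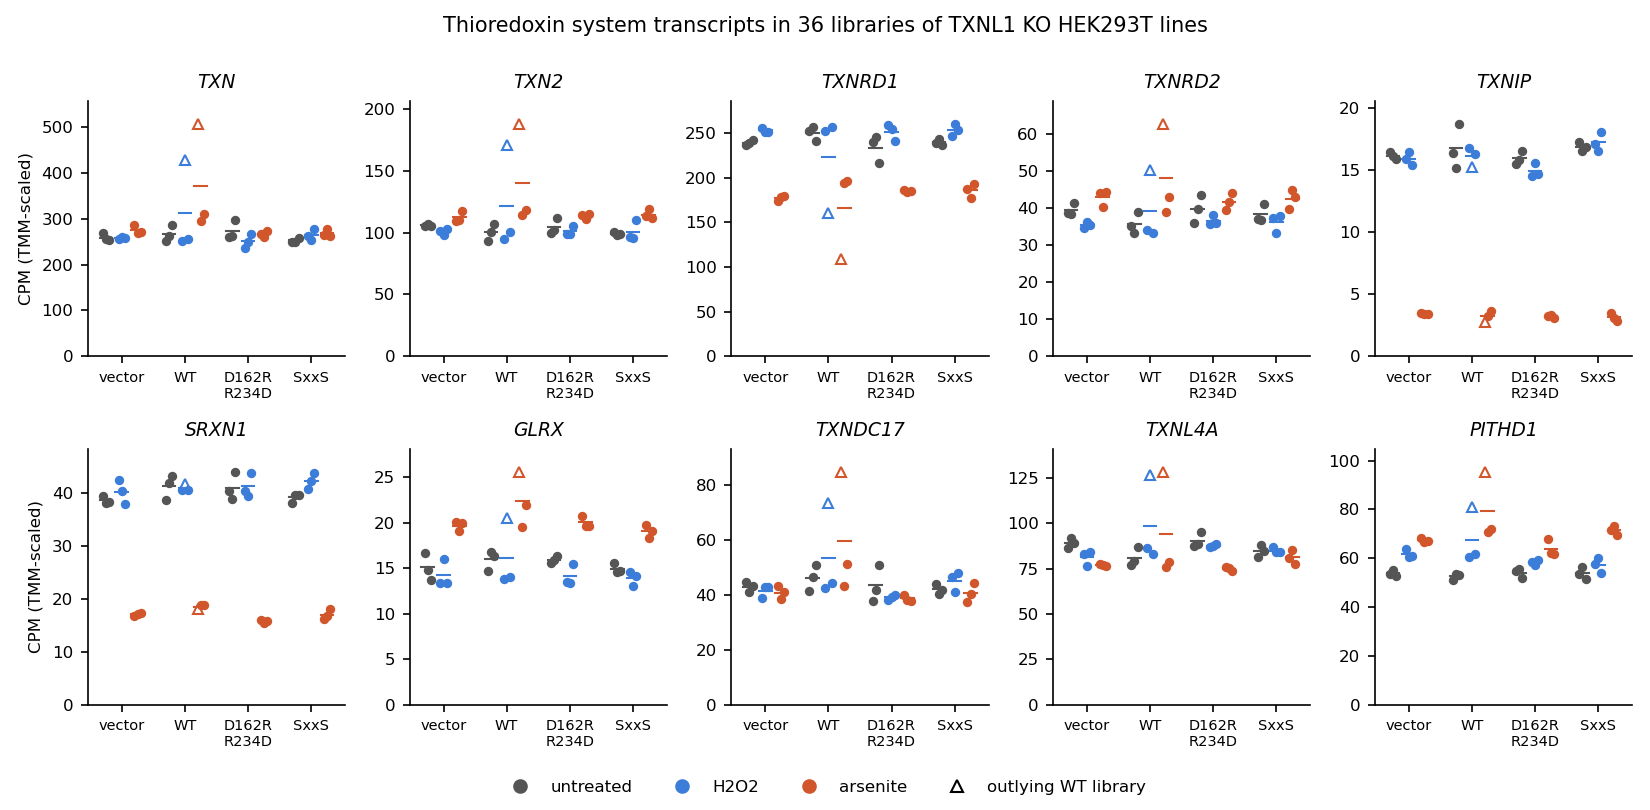
CPM of the 10 genes (vertical axis, TMM-scaled, from 0) in each of the 36 libraries, by line (horizontal axis) and treatment (colour), with a bar at the mean of each 3 replicates. TXNIP, SRXN1 and TXNRD1 lie lower under arsenite in every line, and the open triangles of the outlying WT libraries lie far from their replicates for TXN, TXN2, TXNRD1, TXNDC17 and TXNL4A.

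Arsenite lowered TXNIP, SRXN1 and TXNRD1 and raised GLRX, PITHD1, TXN2 and TXNRD2, so that 7 of the 10 genes were called when averaged over the lines. Arsenite moved most of the transcriptome: 68.8% of all tested genes were called, 37.4% higher and 31.5% lower, and 7 of 10 is close to that background. The log2 median was 0.09 over the 10 genes and 0.06 over all genes. In CPM, all 12 arsenite libraries lay below all 12 untreated ones for 3 of the genes (TXNIP, SRXN1 and TXNRD1) and above them for 2 (GLRX and PITHD1), whereas 30% of all genes did not overlap. Without both outlying WT libraries 9 of the 10 were called, 5 higher and 4 lower, with 73.7% of all genes called. TXN (log2 0.06 ± 0.0245, adjusted p = 0.0243) and TXNL4A (-0.17 ± 0.0231, adjusted p = 3.1e-08) were the genes added.

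TXNIP binds reduced thioredoxin and holds it inactive, and it also limits glucose uptake. Its mRNA was at 16.5, 16.1 and 15.9 CPM in untreated vector libraries and at 3.47, 3.38 and 3.41 CPM under arsenite. In WT cells it went from 16.4, 15.2 and 18.7 CPM to 2.77, 3.26 and 3.65 CPM. The drop was as plain with either mutant: the D162R R234D libraries held 15.5, 15.8 and 16.6 CPM against 3.22, 3.34 and 3.06 CPM, and the SxxS libraries 17.2, 16.5 and 16.9 CPM against 3.47, 3.12 and 2.85 CPM. No arsenite library came near an untreated one in any line. Averaged over the lines, TXNIP fell by 2.34 ± 0.0430 on the log2 scale (5.07-fold lower, adjusted p = 1.2e-27). Under H2O2 its 12 libraries ranged from 14.5 to 18.1 CPM with a median of 16.1 CPM, overlapping the untreated range of 15.2 to 18.7 CPM, and the log2 change was -0.04 ± 0.0397 (adjusted p = 0.648).

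SRXN1 encodes sulfiredoxin, which repairs peroxiredoxins that peroxide has overoxidized, and it is a known NRF2 target. It fell from 39.6, 38.1 and 38.4 CPM to 16.7, 17.2 and 17.3 CPM in vector cells and from 38.8, 42.1 and 43.3 CPM to 18.0, 18.8 and 18.8 CPM in WT cells. The D162R R234D line went from 40.4, 38.9 and 44.04 CPM to 16.1, 15.4 and 15.7 CPM, and the SxxS line from 38.2, 39.8 and 39.7 CPM to 16.2, 16.8 and 18.1 CPM. Arsenite libraries thus lay below untreated ones throughout. The averaged log2 change was -1.23 ± 0.0294 (2.35-fold lower, adjusted p = 6.7e-25). Nearly all of its exon bases (90.7%) are shared with ENSG00000270299, a gene annotated on the same strand whose count was 96.7% to 98.5% of the SRXN1 count in each library, so reads of these genes cannot be told apart. H2O2 left SRXN1 at 38.0 to 43.96 CPM (median 40.8 CPM), overlapping the untreated range of 38.1 to 44.04 CPM.

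TXNRD1, the cytosolic reductase and another known NRF2 target, fell less. Untreated vector libraries were at 236, 239 and 242 CPM and their arsenite counterparts at 175, 179 and 179.7 CPM. WT cells went from 253, 257 and 242 CPM to 109, 194 and 196 CPM, where 109 CPM belongs to the outlying replicate 1. The D162R R234D line held 240.2, 245 and 216 CPM against 187, 185 and 186 CPM, and the SxxS line 239, 243 and 237 CPM against 187, 178 and 193 CPM. No arsenite value reached the lowest untreated value in its line. The averaged log2 change was -0.43 ± 0.0692 (1.35-fold lower, adjusted p = 2.9e-06) and -0.39 ± 0.0193 without both outlying libraries. Its exons overlap no other annotated gene. Its mitochondrial counterpart TXNRD2 moved the other way, from 33.3 to 43.6 CPM (median 38.5) in 12 untreated libraries to 39.0 to 62.7 CPM (median 43.0) under arsenite. The ranges overlapped, and the averaged rise was 0.19 ± 0.0650 on the log2 scale (adjusted p = 0.0103), or 0.12 ± 0.0331 without both outlying libraries.

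The thioredoxins themselves moved little. TXN was at 249 to 297 CPM (median 259.6) in untreated libraries and 259.6 to 507 CPM (median 272) under arsenite, with a log2 change of 0.15 ± 0.0736 (adjusted p = 0.0652) whose 95% interval ran from 0.0029 to 0.30. TXN2, the mitochondrial thioredoxin, was at 93.4 to 112 CPM (median 102) untreated and 109 to 188 CPM (median 114) under arsenite. It was called, at 0.22 ± 0.0741 (adjusted p = 0.00912), and with 0.14 ± 0.0256 also without both outlying libraries. Untreated and arsenite libraries overlapped for both genes. The upper ends of 507 and 188 CPM both came from WT replicate 1.

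GLRX rose from 13.7 to 16.8 CPM (median 15.6) in the 12 untreated libraries to 18.4 to 25.6 CPM (median 19.7) under arsenite, with no overlap. Its averaged log2 change was 0.39 ± 0.0557 (1.31-fold, adjusted p = 4.4e-07). PITHD1 was at 53.5, 55.0 and 52.6 CPM in untreated vector libraries and 68.5, 66.8 and 67.0 CPM under arsenite. In WT cells it went from 51.2, 53.6 and 53.1 CPM to 95.3, 70.5 and 72.0 CPM, the first of these in the outlying library. The D162R R234D line went from 54.8, 55.6 and 51.8 CPM to 67.8, 62.1 and 61.7 CPM, and the SxxS line from 53.7, 56.3 and 51.4 CPM to 71.4, 73.3 and 69.5 CPM. Each line showed the rise, without overlap, and the average was 0.39 ± 0.0446 (1.31-fold, adjusted p = 6.0e-09), or 0.33 ± 0.0222 without both outlying libraries.

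TXNDC17 and TXNL4A showed no call with all libraries. TXNDC17 ranged from 37.6 to 50.9 CPM (median 42.3) untreated and from 37.2 to 84.5 CPM (median 40.4) under arsenite, a log2 change of 0.02 ± 0.0857 (95% interval -0.16 to 0.20, adjusted p = 0.846). Since 34.6% of its exon bases lie opposite MED31 and the strand setting of the counting is not given in the sources used here, part of its count may belong to that gene. TXNL4A ranged from 76.9 to 95.3 CPM (median 87.1) untreated and from 73.7 to 128 CPM (median 77.2) under arsenite, with a log2 change of -0.08 ± 0.0651 (adjusted p = 0.286). Its top value of 128 CPM came from WT replicate 1, and without both outlying libraries its arsenite range was 73.7 to 85.0 CPM and the gene was called lower, as given above.

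Within lines the same genes led. In vector cells 5 of the 10 were called (43.4% of all genes): TXNIP (-2.24 ± 0.0854), SRXN1 (-1.18 ± 0.0588) and TXNRD1 (-0.43 ± 0.138) lower, GLRX (0.38 ± 0.112) and PITHD1 (0.33 ± 0.0893) higher. TXNL4A (-0.23 ± 0.0447) was added without both outlying libraries, for 6 called (56.4% of all genes). SxxS cells also had 5 called (43.6% of all genes), with TXNIP at -2.43 ± 0.0857, SRXN1 at -1.21 ± 0.0587, TXNRD1 at -0.36 ± 0.138, GLRX at 0.35 ± 0.111 and PITHD1 at 0.41 ± 0.0891. The TXNRD1 call there was lost whichever of its 6 libraries was left out (adjusted p = 0.0509 to 0.101). TXN2 (0.19 ± 0.0495) was added without both outlying libraries, for 6 called (57% of all genes). In D162R R234D cells 4 were called (44% of all genes), as TXNRD1 (-0.33 ± 0.138, adjusted p = 0.0508) missed the threshold. TXNIP (-2.31 ± 0.0864) and SRXN1 (-1.39 ± 0.0592) fell there, and GLRX (0.33 ± 0.111) and PITHD1 (0.24 ± 0.0892) rose. These calls depended on the processing: of 14 alternatives, PITHD1 was lost in 6, among them the DESeq2 test (adjusted p = 0.0537), GLRX was lost in 3, and TXNRD1 was gained in 7, among them the DESeq2 test (adjusted p = 0.0289). TXNRD1 (-0.35 ± 0.0374, adjusted p = 2.4e-10) and TXNL4A (-0.28 ± 0.0448, adjusted p = 9.4e-07) were added without both outlying libraries, for 6 called (56.9% of all genes).

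WT cells had 8 of the 10 called (53.6% of all genes), the largest count of any line. Beside TXNIP (-2.38 ± 0.0863), SRXN1 (-1.16 ± 0.0588), TXNRD1 (-0.59 ± 0.139), GLRX (0.49 ± 0.112) and PITHD1 (0.59 ± 0.0895), these were TXN (0.48 ± 0.147), TXN2 (0.48 ± 0.148) and TXNRD2 (0.43 ± 0.130). With replicate 1 of the arsenite group left out, the calls of TXN (0.18, adjusted p = 0.247), TXN2 (0.21, adjusted p = 0.209) and TXNRD2 (0.19, adjusted p = 0.184) were lost. The share of all genes called in that fit is not given here, so the loss cannot be called particular to these genes. Without both outlying libraries 8 were again called (52.9% of all genes), with a smaller estimate of the spread. The size of the TXN, TXN2 and TXNRD2 changes in WT cells therefore depended on 1 library. With each library left out in turn, TXNIP stayed between -2.50 and -2.27 and SRXN1 between -1.20 and -1.13.

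**Figure D2:**
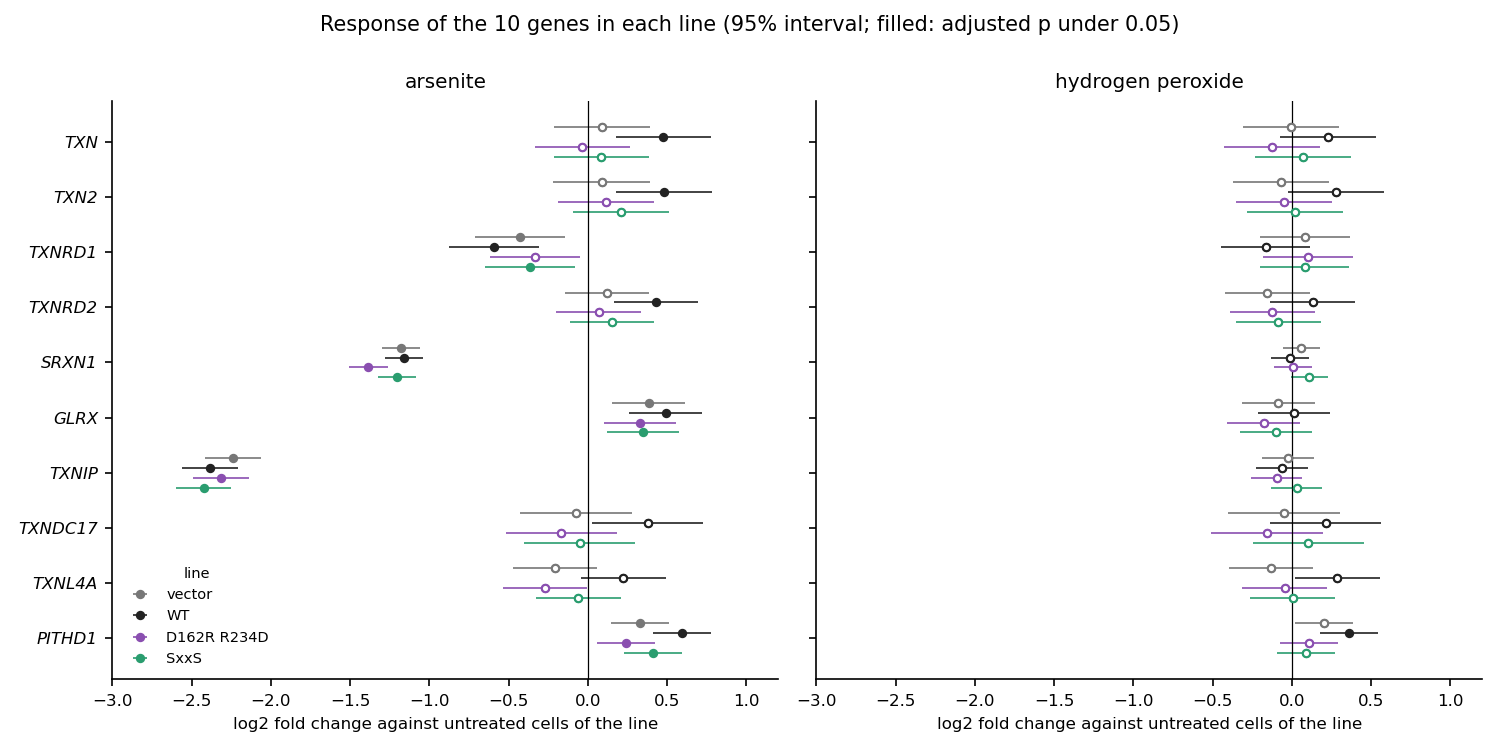
Log2 fold change of the 10 genes (rows) in each of the 4 lines under arsenite (left) and hydrogen peroxide (right), with 95% intervals (horizontal axis, log2 scale) and filled points for genes called at an adjusted p under 0.05. TXNIP lies between -2.43 and -2.24 in the 4 lines under arsenite, whereas the intervals under hydrogen peroxide mostly cover 0.

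Whether arsenite acted differently between the lines was tested as the interaction of line and treatment over 3 degrees of freedom. None of the 10 genes was called by edgeR's quasi-likelihood test, nor by DESeq2, and 0% of all genes were called. SRXN1 alone of the 10 had an unadjusted p under 0.05 by edgeR's quasi-likelihood test (adjusted p = 0.754), as did 1432 of all 22486 genes. Its fall was 1.39 in D162R R234D cells against 1.16 to 1.21 in the other lines, a difference that was not called. Without both outlying libraries 0.205% of all genes were called and again none of the 10, while 4 of them had an unadjusted p under 0.05. Such a p was found for 2402 of all 22486 genes. TXNL4A was then lowest (adjusted p = 0.225), followed by PITHD1 (adjusted p = 0.333).

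Hydrogen peroxide left these transcripts close to untreated levels. Averaged over the lines PITHD1 was the only one of the 10 called, where 12.1% of all genes were called (6.78% higher and 5.3% lower). Its 12 H2O2 libraries ranged from 53.8 to 80.9 CPM (median 60.3) against 51.2 to 56.3 CPM (median 53.5) untreated, an overlap at the low end. The log2 change was 0.19 ± 0.0446 (1.14-fold, adjusted p = 0.0039) and 0.15 ± 0.0223 without both outlying libraries. In CPM none of the 10 had H2O2 libraries clear of the untreated ones, as 1.15% of all genes did. For the 9 genes not called the log2 change lay between -0.09 (GLRX) and 0.05 (TXN2).

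With both outlying libraries left out, 4 of the 10 genes were called under H2O2, beside 28.6% of all genes. PITHD1 and TXNRD1 were higher, and GLRX and TXNRD2 lower. TXNRD1 was at 241 to 260.4 CPM (median 253) in the 11 remaining H2O2 libraries against 216 to 257 CPM (median 241) untreated, a log2 change of 0.07 ± 0.0192 (adjusted p = 0.00599). GLRX (13.1 to 16.0 CPM, median 13.8) changed by -0.15 ± 0.0377 (adjusted p = 0.00308) and TXNRD2 (33.2 to 38.1 CPM, median 35.7) by -0.12 ± 0.0334 (adjusted p = 0.0071). All of these ranges overlapped those of untreated cells. Side by side, arsenite without both outlying libraries gave -0.39 for TXNRD1, 0.34 for GLRX and 0.12 for TXNRD2, and both comparisons use the same untreated libraries.

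Within lines, H2O2 gave 1 call among the 10, PITHD1 in WT cells (0.36 ± 0.0893, adjusted p = 0.011, 8.06% of all genes), from 51.2, 53.6 and 53.1 CPM to 60.5, 80.9 and 61.6 CPM. Without replicate 2, the library at 80.9 CPM, it was 0.21 with an adjusted p of 0.16. Without both outlying libraries PITHD1 was called in WT cells (8.98% of all genes). None was called in vector (1.35% of all genes), D162R R234D (1.03%) or SxxS cells (1.02%), by edgeR's test or by DESeq2. At an unadjusted p under 0.05 the edgeR counts were 1, 0 and 0, beside 2542, 2408 and 2208 of all 22486 genes. Without both outlying libraries none was called in D162R R234D (10.4% of all genes) or SxxS cells (6.56%) by edgeR. There 4 and 2 of the 10 had an unadjusted p under 0.05, beside 5444 and 4293 of all 22486 genes. In vector cells PITHD1 was at 63.9, 60.7 and 61.0 CPM, above each untreated vector library, and 2 of the 10 genes, PITHD1 and TXNL4A, were called there without both outlying libraries (9.87% of all genes). The interaction of line and H2O2 gave no call among the 10 by edgeR, with all libraries (0.685% of all genes) or without both outlying ones (1.51%). With all libraries none was called by DESeq2 or had an unadjusted p under 0.05 by edgeR, beside 1970 of all 22486 genes at that p. Without both outlying ones 2 had such a p, beside 2503 of all genes.

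Set directly against H2O2, arsenite gave 7 calls among the 10, as against 68.7% of all genes. TXNIP (-2.30 ± 0.0429), SRXN1 (-1.27 ± 0.0294) and TXNRD1 (-0.45 ± 0.0692) were lower with arsenite, and GLRX (0.47 ± 0.0558), TXNRD2 (0.25 ± 0.0651), PITHD1 (0.20 ± 0.0445) and TXN2 (0.18 ± 0.0740) were higher. The TXN2 call was lost in 14 of 32 alternatives, among them the DESeq2 test (0.15, adjusted p = 0.0696) and several fits with a single library left out. TXN and TXNL4A were added without both outlying libraries, for 9 called (74.8% of all genes).

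The outlying libraries moved the 10 genes in a like manner. In WT arsenite replicate 1 the CPM of TXNDC17, TXN, TXNL4A and TXN2 was 1.79, 1.68, 1.66 and 1.62 times the mean of the other 2 libraries of the group, and in WT H2O2 replicate 2 it was 1.70, 1.69, 1.499 and 1.75 times. TXNRD1 was at 0.558 and 0.629 times, and SRXN1 at 0.959 and 1.03 times. TXNRD2 (1.53 and 1.49), PITHD1 (1.34 and 1.32) and GLRX (1.23 and 1.47) were also higher in both, and TXNIP was lower (0.802 and 0.921). Over 15674 genes these log2 ratios correlated with the log2 of gene length (Pearson r = -0.329 and -0.339, Spearman rho = -0.417 and -0.441, across genes of 1 library each, which are not independent), shorter genes tending to be higher. TXN, with 1010 exon bases the shortest of the 10, and TXNRD1, with 6710, lay on opposite sides, but TXNRD2 with 8201 bases was among the higher ones. The part of gene length or RNA quality in these libraries was not tested.

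**Figure D3:**
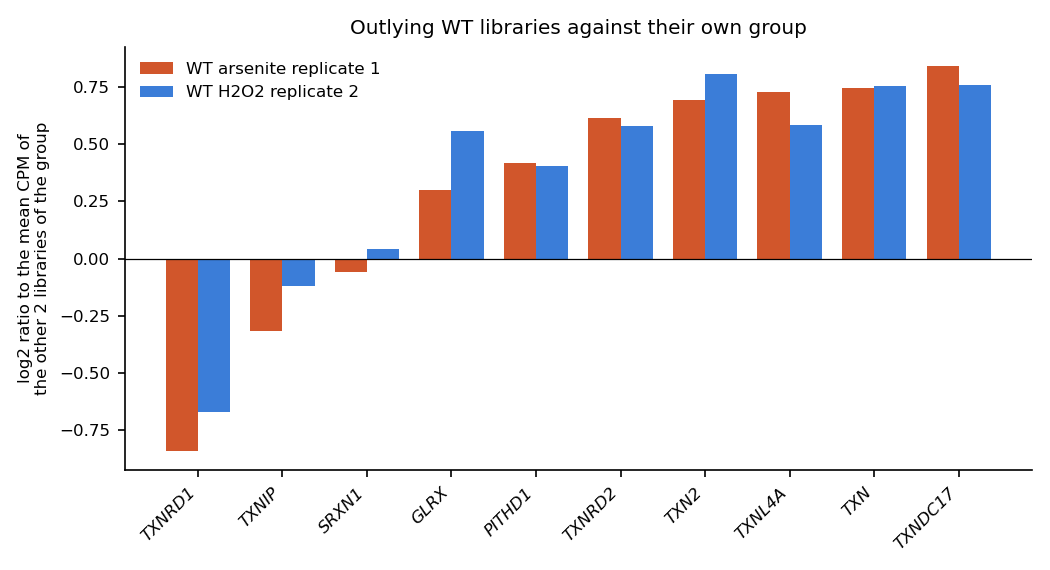
Log2 ratio of each outlying WT library to the mean CPM of the other 2 libraries of its group (vertical axis) for the 10 genes, ordered by the arsenite library. TXNRD1 is lowest in both, and TXN, TXN2, TXNDC17 and TXNL4A are the 4 highest in both.

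Other genes of the pathways were counted in 6 lists. Of 66 genes 63 were tested, and 48 were called under arsenite (21 higher, 27 lower) beside 68.8% of all genes, with a log2 median of -0.01 against 0.06 over all genes. Under H2O2 12 were called (11 higher, 1 lower) beside 12.1% of all genes.

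The list of 14 NRF2 pathway genes holds regulators as well as targets. Under arsenite 8 of them were higher and 4 lower, the latter KEAP1, BACH1, GCLC and GSR. MAFF, a small MAF partner of NRF2 and related factors, rose from 0.924 to 1.44 CPM in untreated libraries to 14.0 to 19.0 CPM (log2 3.78 ± 0.0942, adjusted p = 2.1e-24). HMOX1, haem oxygenase, rose from 31.4 to 37.7 CPM to 135 to 181 CPM (2.23 ± 0.0556, adjusted p = 2.2e-24), and NFE2L2, which encodes NRF2, rose by 1.41 ± 0.0284 (adjusted p = 1.0e-26). In GENCODE 44, 38.4% of NFE2L2 exon bases overlap other annotated genes. Its exon length there is 14975 bases against 5671 in the deposited table, so the overlap within its counts is not known. GCLC, the catalytic subunit that begins glutathione synthesis, was lower (-0.60 ± 0.0549), as SRXN1 and TXNRD1 were, while the textbook target NQO1, named after its values were seen, was at -0.01 ± 0.0506 (adjusted p = 0.926). Under H2O2 5 of the 14 rose, with HMOX1 at 0.63 ± 0.0537 and the cystine carrier SLC7A11 at 0.91 ± 0.119. The H2O2 libraries of SLC7A11 (13.5 to 39.2 CPM) overlapped the untreated ones (10.7 to 19.1 CPM), and arsenite raised it by 0.84 ± 0.119. SRXN1 and TXNRD1 were not called under H2O2 with all libraries (0.04 ± 0.0288 and 0.03 ± 0.0690).

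TXNIP belongs to the alpha-arrestins. Of the 7 tested genes of its relatives and of the factors known to drive it, 2 were higher and 3 lower under arsenite. ARRDC4, its closest relative, went from 13.7 to 16.7 CPM untreated to 1.99 to 3.65 CPM, without overlap. Its log2 change of -2.41 ± 0.0760 was near the -2.34 of TXNIP. ARRDC3 fell too (-1.03 ± 0.0871), but ARRDC2, another relative of TXNIP, rose (0.63 ± 0.0630). MLXIP, the main glucose-sensing factor of many cells, fell by 0.61 ± 0.0307, whereas its low-level relative MLXIPL rose (1.25 ± 0.0966, from a mean of 1.53 to 3.62 CPM). Under H2O2 ARRDC4 (0.27 ± 0.0697, adjusted p = 0.0101) and ARRDC2 (0.23 ± 0.0633, adjusted p = 0.0138) rose, where TXNIP was not called. The ARRDC4 window held CACGTG 210 bases before its start and no paired E-boxes.

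Thioredoxin reductases and several other proteins need selenocysteine. All 5 genes of its incorporation were called under arsenite, 4 higher and 1 lower. SEPHS2, which makes the selenium donor, fell from 87.4 to 96.4 CPM to 24.5 to 36.3 CPM (log2 -1.68 ± 0.0353, adjusted p = 3.0e-26). EEFSEC (0.47 ± 0.0483), the elongation factor for selenocysteine, the tRNA kinase PSTK (0.49 ± 0.0542) and SECISBP2 (0.16 ± 0.0256), which binds selenoprotein mRNAs, rose. Under H2O2 SECISBP2 (0.10 ± 0.0256, adjusted p = 0.00656) and SEPHS2 (0.11 ± 0.0342, adjusted p = 0.0366) were higher.

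Enzymes that take electrons from thioredoxin (12 tested) gave 2 higher and 6 lower. RRM2 and RRM2B, small subunits of ribonucleotide reductase, fell by 0.66 ± 0.0283 and 0.83 ± 0.0842, whereas its large subunit RRM1 changed by only -0.10 ± 0.0238. The mitochondrial peroxiredoxin PRDX3 fell by 0.23 ± 0.0214 and the methionine sulfoxide reductase MSRB3 by 0.22 ± 0.0435. Under H2O2 PRDX3 fell by 0.14 ± 0.0214 (adjusted p = 2.4e-05) and RRM2 rose (0.09 ± 0.0282, adjusted p = 0.0238), among 2 higher and 1 lower.

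Of 18 tested thioredoxin-fold and glutaredoxin genes outside the 10, 3 were higher and 8 lower with arsenite. With H2O2 none was called by edgeR, 4 had an unadjusted p under 0.05 (as did 5390 of all 22486 genes) and DESeq2 called 1. TXNDC11 (-0.73 ± 0.0283), TXNDC15 (-0.71 ± 0.0293) and TXNDC5 (-0.50 ± 0.0249), which act in or at the endoplasmic reticulum, fell, and TXNL4B, a relative of TXNL4A, rose (0.73 ± 0.0359). TXNDC5 shares 61.1% of its exon bases with other annotated genes. The 7 U5 snRNP partners of TXNL4A were all called under arsenite, 2 higher and 5 lower, and none under H2O2 by edgeR, where 4 had an unadjusted p under 0.05 and DESeq2 called 3. CD2BP2, which binds TXNL4A in the particle, fell by 0.81 ± 0.0446, DDX23 and EFTUD2 by 0.24 ± 0.0201 and 0.24 ± 0.0204, and SNRNP40 rose by 0.27 ± 0.0339. Without both outlying libraries 6 of those 18 genes and 6 of the 7 partners were called under H2O2, beside 28.6% of all genes, at log2 changes whose median was -0.04 and -0.07.

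**Figure D4:**
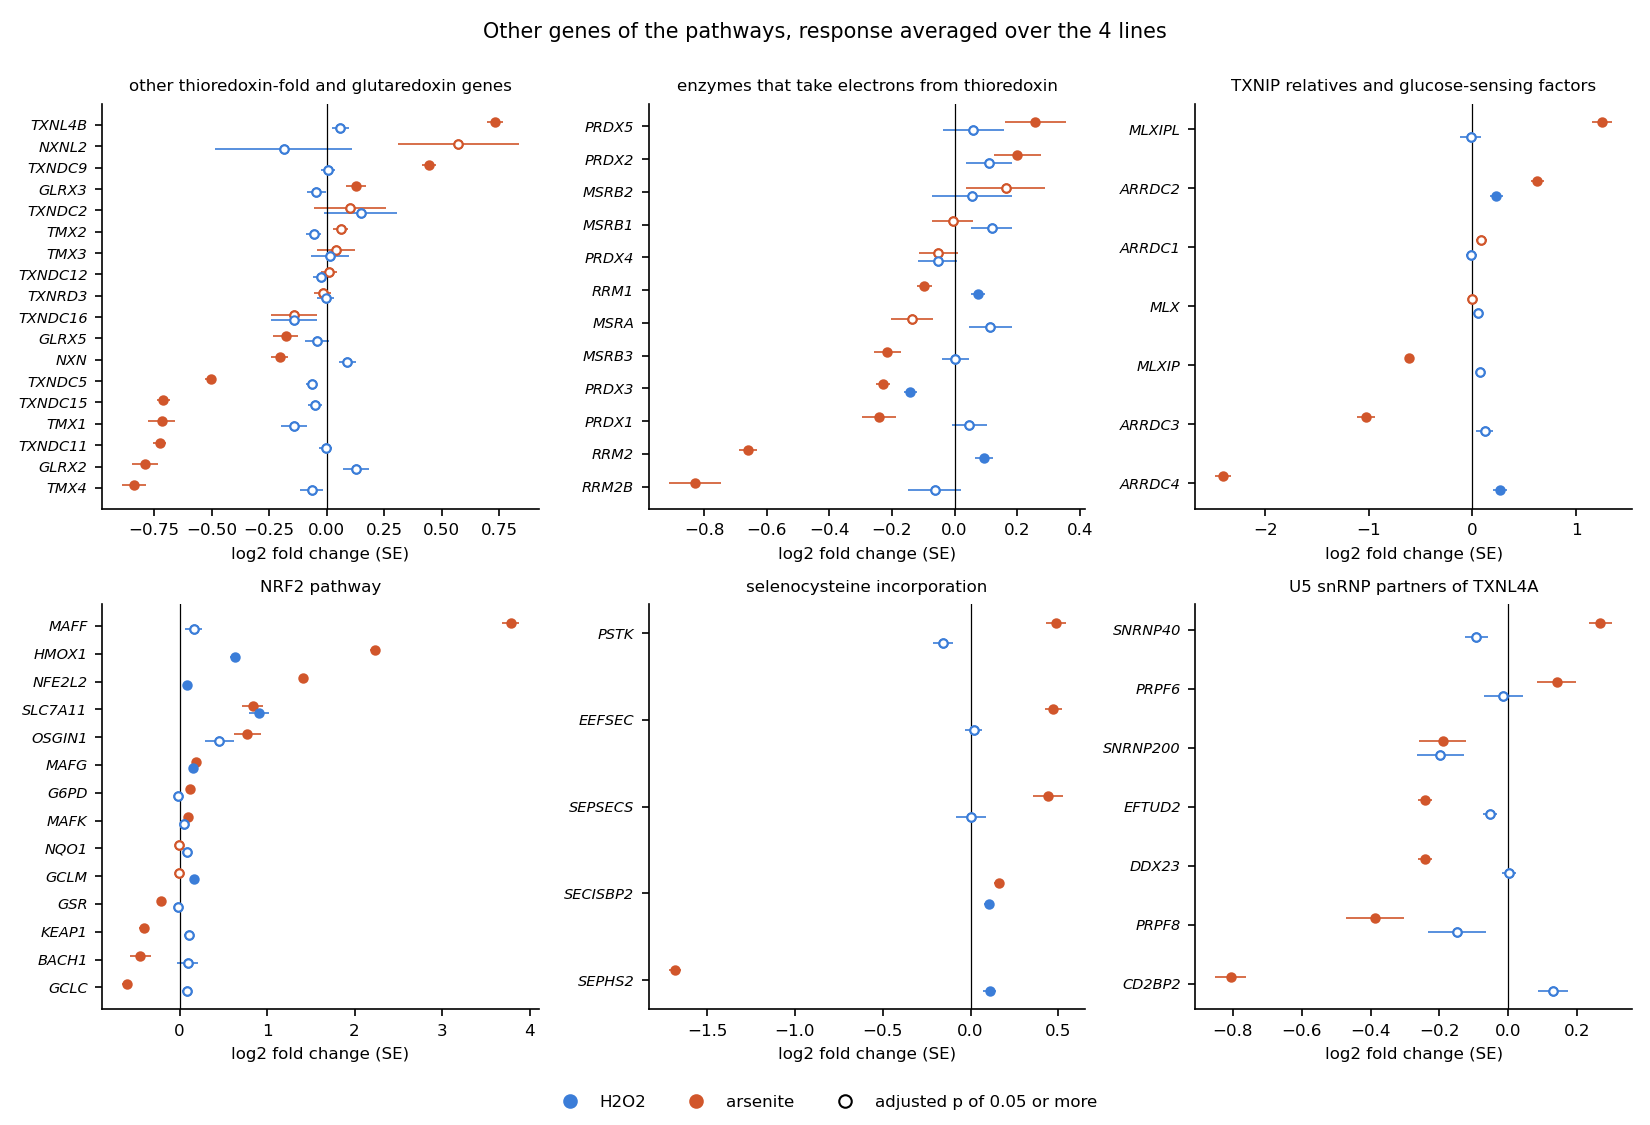
Log2 fold change with SE (horizontal axis, scaled separately in each panel) of the 63 tested pathway genes in 6 lists, averaged over the lines, for arsenite and H2O2, with open points for an adjusted p of 0.05 or more. HMOX1 and MAFF lie far to the right and ARRDC4 and SEPHS2 far to the left under arsenite, while H2O2 changes stay within 1 log2 unit.

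The genes most like 5 of the 10 were sought over the 12 group means of log2 CPM, among genes with at least 10 CPM. TXNIP was most like ZBTB9, NRBF2 and C15orf39 (Pearson r = 0.998 for each), SRXN1 most like SLC6A8, NUP43 and ZNF526 (0.999, 0.999 and 0.998) and TXNRD1 most like CD2AP, IPO7 and CTCF (0.997, 0.997 and 0.996). Such closeness was common for genes that arsenite lowers: 2535, 2459 and 2476 genes (of 10245, or 10244 for SRXN1) had r over 0.9 with TXNIP, SRXN1 and TXNRD1. TXN was most like TMA7 (0.987, and 0.951 without the outlying libraries), and 299 genes passed 0.9. PITHD1, with 185 such genes, was most like ACSF3, ENSG00000286192 and RELT (0.977, 0.977 and 0.967). The 12 means share the arsenite contrast and the outlying libraries, so these values describe a shape over groups and no more.

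The genes lie on GRCh38 as annotated in GENCODE release 44: TXN at chr9:110243810-110256507 on the minus strand, TXN2 at chr22:36467046-36481640 and TXNRD2 at chr22:19875517-19941820, both minus, and TXNRD1 at chr12:104215779-104350307 on the plus strand. TXNIP spans chr1:145992435-145996579 and SRXN1 chr20:646615-653200, both minus. GLRX spans chr5:95751319-95822726 (minus), TXNDC17 chr17:6640985-6644541 (plus), TXNL4A chr18:79970813-80033949 (minus) and PITHD1 chr1:23778418-23788232 (plus). All 10 are protein-coding genes, and the values are sums over their exons.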

How the data were processed

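RNA of 36 libraries was sequenced after a strand-specific DNBSEQ preparation. According to the methods of the study, the authors aligned paired-end reads to GRCh38 with QuasR. The authors deposited counts per gene, whole numbers in 1 column per library whose totals differ, as unscaled counts do. The annotation release and the strand setting of the counting are not given in the sources used here. The deposited table also holds a gene length, which was used for levels per kilobase. No row lacked a gene name.

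Samples were grouped by their labels. Genes were kept if the 3 untreated vector libraries held 10 or more counts between them (22486 of 42726 genes with a count). The tool was edgeR 4.0.16 (R 4.3.3, limma 3.58.1), with TMM scaling, a separate mean for each of the 12 groups, and its robust quasi-likelihood F-test, adjusted over the tested genes by Benjamini and Hochberg. Called means an adjusted p under 0.05. CPM use TMM-scaled library sizes. Log2 fold changes carry the SE of the fit and 95% intervals. The comparisons were each complemented line against vector cells, each oxidant against untreated cells within and over the lines, arsenite against H2O2, and the interactions of line and oxidant. Of 61587 gene IDs 61369 were matched to GENCODE 44, 56987 in the same version, which may not be the release the authors used. The exon lengths of the 10 genes were equal in both.

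The 10 genes, the pathway lists and the alternatives were chosen with earlier results of these data known. Besides the 10, the text names in each list up to 4 genes with the smallest adjusted p under arsenite and up to 2 called under H2O2. NQO1, KEAP1, BACH1, GSR, RRM1 and the arsenite changes of ARRDC2 and SLC7A11 were added after their values were seen. The alternatives were DESeq2 1.42.0 size factors or test, total counts, other filters, only the groups compared, a replicate block, and each library or both outlying WT libraries left out. The code was tested on simulated counts. No 2 replicates were duplicates: over the 36 pairs, chi-square divided by its degrees of freedom was 3.32 to 344. Counting error is small at 42072410 to 174119002 counts per library, and the spread between replicates (biological coefficient of variation 12.4%) limits the precision. Motif searches covered the 250 bases before each RefSeq start.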

Additional observations from a re-analysis of the deposited data

How the results depend on the processing

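For the 10 genes, 140 fold changes were recomputed under 2500 alternatives: 2421 kept their direction and side of the threshold or stayed below it, 38 lost and 41 gained a call, and 0 called changes turned. TXNIP and SRXN1 were called lower under arsenite in every line under every alternative run. Fitting just the groups under comparison, the calls among the 10 went from 8 to 4 for arsenite in WT, from 1 to 0 for H2O2 in WT and from 0 to 3 for H2O2 in vector cells. With both outlying WT libraries left out, the calls for H2O2 went from 1 to 4 over the lines (12.1% to 28.6% of all genes) and from 0 to 2 in vector cells (1.35% to 9.87%). Among the pathway genes they went from 12 to 30, and fell to 7 with no filter. For the other settings here the share of all genes called is not given, so a changed count cannot be called particular to the 10 genes. With each library left out in turn, the calls ranged from 5 to 10 for arsenite in WT (8 with all), from 2 to 4 for arsenite in D162R R234D (4 with all, and 6 without both outlying libraries or with just the groups compared), 4 throughout for arsenite in SxxS (5 with all), from 1 to 2 for H2O2 over the lines and from 0 to 2 for H2O2 in WT (1 with all). Fewer libraries enter these fits, and the cause was otherwise not tested. For arsenite in WT the lowest count was without arsenite replicate 1, for arsenite in D162R R234D without arsenite replicate 1 or untreated replicate 1, and for H2O2 in WT without H2O2 replicate 2, which also gave the highest count over the lines. The replicate block changed no count of calls (7 for arsenite over the lines), and same-numbered libraries were otherwise treated as unpaired. Of 198 same-numbered pairs across groups 44 had deviations that correlated over 0.1 (median 0.0155, and -0.0076 for differently numbered pairs). The labels do not say whether same-numbered libraries belong together, and these correlations cannot settle it. TMM, DESeq2 and total-count scaling put the median of all genes at 0.06, 0.04 and 0.02 (log2) for arsenite, and the 3 scalings gave the 7 arsenite calls the same directions.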
